A study of Mus musculus with 18 samples.

Results

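The potassium, sodium and calcium channel genes described here were taken from a count table of mouse B16 melanoma cells by symbol: those beginning with Kcn or Cacn, and those beginning with Scn followed by a digit. The imprinted RNA Kcnq1ot1 and symbols ending in os (opposite-strand transcripts) were left out, 4 in all. Of the 134 remaining symbols, 73 had at least 10 counts summed over the 9 libraries and form the set, of 46068 genes in the table. The 61 symbols under that limit held 59 counts in PB-4, 11 in ATRA and 6 in control libraries together, and 35 of them had no count anywhere. Just inside the limit stood Cacna1b and Kcnc4 with 10 counts, Kcnk3 with 13 and Cacna1e with 14. Outside it stood Cacna1f with 7, Kcnh1 with 6 and Kcnma1 with 5. Because the limit was on the sum over all libraries, a gene seen only after a treatment could enter through that treatment.

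Voltage-gated and related ion channels are membrane proteins through which potassium, sodium and calcium ions cross the membrane. The pore is built by an alpha subunit, and accessory subunits set how many channels reach the surface and how fast they open and close. Sodium channel alpha subunits carry the fast upstroke of the action potential in nerve and muscle, potassium channels return the membrane to rest, and calcium channels turn a change of voltage into calcium entry. Pigment cells and melanomas are not classically excitable, although single potassium and calcium channels are known to work in them.

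The set held 21 voltage-gated potassium channel alpha subunits, 4 inward rectifiers, 5 members of the K2P leak channel family, 5 calcium- or sodium-activated potassium channels and 8 potassium channel accessory genes. It further held 9 calcium channel alpha1, 3 alpha2delta, 4 beta and 2 gamma subunits, together with 9 sodium channel alpha and 3 beta subunits.

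Total RNA had been sequenced from cultured B16 cells, a mouse melanoma line, in 3 groups of 3 libraries. The cells had been given PB-4, which is sodium 4-phenylbutanoate, a histone deacetylase inhibitor and chemical chaperone, or ATRA, which is all-trans retinoic acid, the ligand of the retinoic acid receptors, or neither (control). The line is otherwise the same in every group, and neither dose nor duration was found in the labels or methods. The libraries are numbered 1 to 3 in each group and are not stated to be separate cultures, so a p-value here reflects the spread between libraries alone, which may be technical. Library totals were 13928215 to 35832073 counts with PB-4, 12632669 to 36176443 with ATRA and 17006638 to 32633226 in controls. Levels below are CPM (counts scaled to a common library total, in the usual unit), are given for replicates 1, 2 and 3 in that order, and are not divided by gene length, so that they compare groups and not genes.

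Replicate 3 stood apart from replicates 1 and 2 in all 3 groups. Over all genes the first principal component, with 48% of the variance, set PB-4 libraries (-80.8 to -57.5) apart from ATRA and control libraries (26.3 to 40.5). The second, with 28.8%, set replicate 3 (-59.3 to -42.8) apart from replicates 1 and 2 (2.36 to 39.9). In the 32 channel genes averaging at least 1 CPM over all 9 libraries, replicate 3 was set against the mean of the others. With 0.1 CPM added to each level, the median log2 difference was 0.32 with PB-4, -0.07 with ATRA and -0.05 in controls. Single genes moved far more: Kcnc2 was lower in replicate 3 by a log2 difference of -2.62 with PB-4, -4.62 with ATRA and -3.93 in controls, and Kcnh2 was higher by 0.79, 1.66 and 2.13. Replicate 3 was lower for genes with long annotated spans, with Spearman coefficients of -0.42, -0.34 and -0.44 across these 32 genes of the same libraries. Several of the 32 were at or near 0 without PB-4, such as Kcnt1. Their ATRA and control differences rest largely on the added 0.1 CPM, and the ATRA and control medians and coefficients include them. Counts of called genes in the set, its families and the other lists were therefore also made on replicates 1 and 2 alone, and some are given below. Counts of neighbours and of groups that did not overlap were not.

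Summed over the 73 channel genes, the level was 679, 748 and 1000 CPM in PB-4 libraries, 217, 205 and 226 CPM in ATRA libraries and 217, 203 and 195 CPM in control libraries. At least 1 count was seen for 70, 70 and 70 of the genes with PB-4, for 45, 50 and 39 with ATRA and for 46, 50 and 45 in controls. A mean of at least 1 CPM was reached by 43 genes with PB-4, by 24 with ATRA and by 20 in controls. No gene was at 0 in all PB-4 libraries, whereas 19 were at 0 in all ATRA libraries and 16 in all control libraries. The counts of genes detected were in part fixed by the limit on summed counts, since a gene at 0 in a group could enter only through the others, and they are given as a description. Since bulk RNA was measured, a change in the number of expressing cells and a change in the RNA per cell cannot be told apart.

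**Figure D1:**
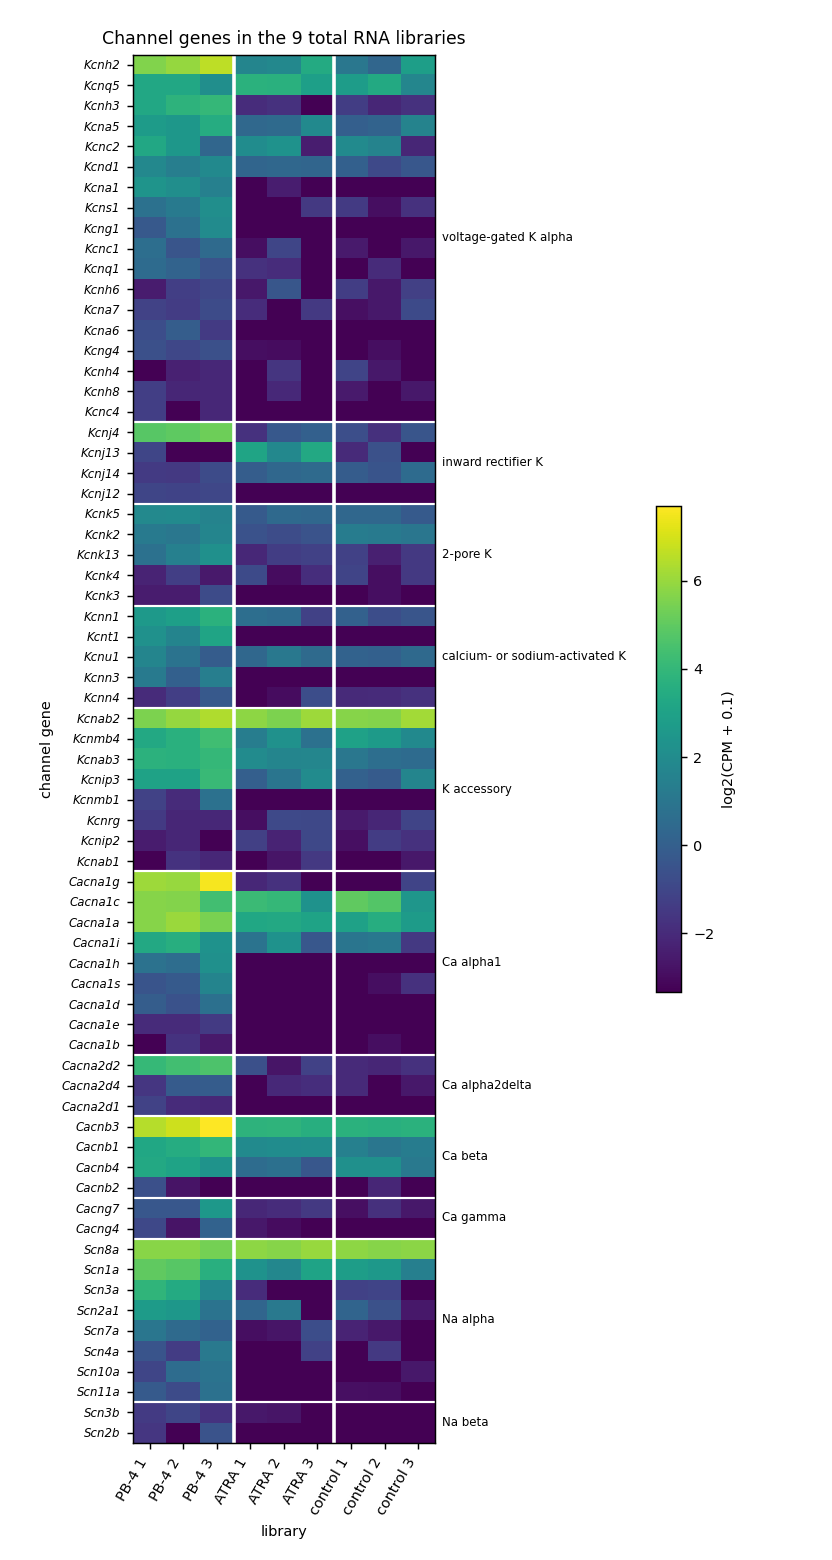
Level of 68 of the channel genes in each library, as log2(CPM + 0.1), by family. Columns run PB-4, ATRA, control with replicates 1 to 3 in each. In every family some rows are brighter in the PB-4 columns than in the ATRA and control columns. Other dark rows, such as Kcnh4 and Kcnip2, do not brighten, and rows such as Scn8a and Kcnab2 keep nearly 1 shade across all 9 columns.

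To show the DNA at the start of genes that did different things, the promoter windows of 5 members are given here from RefSeq on build GRCm38.p6, each from 250 bases before to 50 bases after an annotated start, 5′ to 3′ on the strand of the gene. Capitals mark the GC box GGGCGG, which Sp-family factors bind, and the TATA motif TATAAA, each on either strand. Cacna2d2 (chr9:107399630-107399929, plus strand), Kcnj4 (chr15:79505192-79505491, minus strand) and Kcnh2 (chr5:24329542-24329841, minus strand) rose with PB-4. Scn8a (chr15:100870395-100870694, plus strand, 1 of 2 annotated windows) is a gene that was already transcribed in control cells and passed no test, and Kcnj13 (chr1:87394680-87394979, minus strand) is the gene that was high with ATRA.
Cacna2d2: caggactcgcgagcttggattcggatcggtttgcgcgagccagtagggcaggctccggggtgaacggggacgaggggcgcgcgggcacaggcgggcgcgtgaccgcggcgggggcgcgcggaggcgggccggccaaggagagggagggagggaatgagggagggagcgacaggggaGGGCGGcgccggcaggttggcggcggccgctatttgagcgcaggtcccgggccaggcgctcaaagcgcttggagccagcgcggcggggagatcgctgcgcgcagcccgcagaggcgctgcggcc
Kcnj4: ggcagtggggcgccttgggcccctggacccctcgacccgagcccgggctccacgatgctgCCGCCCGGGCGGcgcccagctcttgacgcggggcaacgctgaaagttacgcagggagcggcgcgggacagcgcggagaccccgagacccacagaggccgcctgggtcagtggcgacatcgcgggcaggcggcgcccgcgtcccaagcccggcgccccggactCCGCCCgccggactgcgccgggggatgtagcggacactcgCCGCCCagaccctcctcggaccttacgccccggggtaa
Kcnh2: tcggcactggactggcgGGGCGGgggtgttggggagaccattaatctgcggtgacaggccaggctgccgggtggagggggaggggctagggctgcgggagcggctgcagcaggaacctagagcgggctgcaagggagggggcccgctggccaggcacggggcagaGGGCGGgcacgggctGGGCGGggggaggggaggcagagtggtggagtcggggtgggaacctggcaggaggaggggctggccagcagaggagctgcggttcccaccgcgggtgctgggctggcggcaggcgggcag
Scn8a: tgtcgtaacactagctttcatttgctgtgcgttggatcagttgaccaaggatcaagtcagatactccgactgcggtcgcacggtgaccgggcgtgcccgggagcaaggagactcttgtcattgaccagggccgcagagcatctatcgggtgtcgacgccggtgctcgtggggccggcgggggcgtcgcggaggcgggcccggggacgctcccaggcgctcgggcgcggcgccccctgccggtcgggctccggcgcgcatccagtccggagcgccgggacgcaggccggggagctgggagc
Kcnj13: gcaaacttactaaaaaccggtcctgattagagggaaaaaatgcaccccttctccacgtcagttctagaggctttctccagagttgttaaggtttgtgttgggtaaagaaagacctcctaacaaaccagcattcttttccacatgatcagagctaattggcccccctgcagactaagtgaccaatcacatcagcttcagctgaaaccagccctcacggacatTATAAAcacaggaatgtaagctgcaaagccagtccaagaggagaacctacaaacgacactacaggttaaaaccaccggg

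The windows of Cacna2d2, Kcnj4 and Kcnh2 had 75.7%, 76.0% and 74.3% G and C bases, with 43, 41 and 19 CpG dinucleotides and 1, 4 and 3 GC boxes. The printed Scn8a window was also rich in them, with 70.0% G and C, 38 CpG and no GC box, while its other window had 53.3% and 12 CpG. The window of Kcnj13 had 46.0% G and C, 5 CpG and 1 TATAAA. A window was held for 51 of the 73 members, among them 26 of the 40 genes that rose with PB-4. Median G and C content was 60.3% in the 33 windows of genes that rose with PB-4, 56.7% in the 42 windows of the other members and 52.7% in all 32851 windows of the table. Median CpG numbers were 9.0, 6.5 and 7.0 in the same order. The printed windows of Cacna2d2, Kcnj4 and Kcnh2 thus lay above the median of the genes that rose in both measures and are not typical of them. GGGCGG, searched on both strands, was in 48.5% of the windows of the genes that rose, in 40.5% of those of the other members and in 35.7% of all windows. TATAAA was in 6.1%, 4.8% and 13.6% of them, and AGGTCA, a motif of retinoic acid receptors, in 3.0%, 2.4% and 16.3%. A match describes the letters only, and the lack of one says nothing about a factor. The printed Kcnj4, Kcnh2 and Scn8a windows lie inside the annotated genes, whose 5′ bounds are at positions 79512511, 24351684 and 100869863. Which start these cells use was not tested.

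The comparison of PB-4-treated with control cells asked which channel genes respond to this compound. Of the 73 genes, all of which could be tested, 40 rose and none fell by edgeR's quasi-likelihood test at a Benjamini-Hochberg adjusted p under 0.05 over all genes, which is 54.8%. Over all 19450 genes tested, 11.5% rose and 4.59% fell. At an unadjusted p under 0.05, 50 had higher and 1 had lower values, where 20.3% of all genes were higher and 11.5% lower. The 73 genes had a median log2 fold change of 3.43, against 0.03 for all genes tested, or of 2.95 with groups at 0 set to a floor of 3 counts. Positive values were seen for 66 of the 73. In each of the 40 genes every PB-4 library was above every control library. Neither of these counts was made over all genes, so both describe the members only. These shares rest in part on the limit used to form the set: 11 of the 40 had no count in any control library and entered on their PB-4 counts. Cacna1s, Kcng4, Scn10a and Scn11a, with 4, 1, 1 and 2 control counts and at most 2 with ATRA, also entered only through PB-4.

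**Figure D2:**
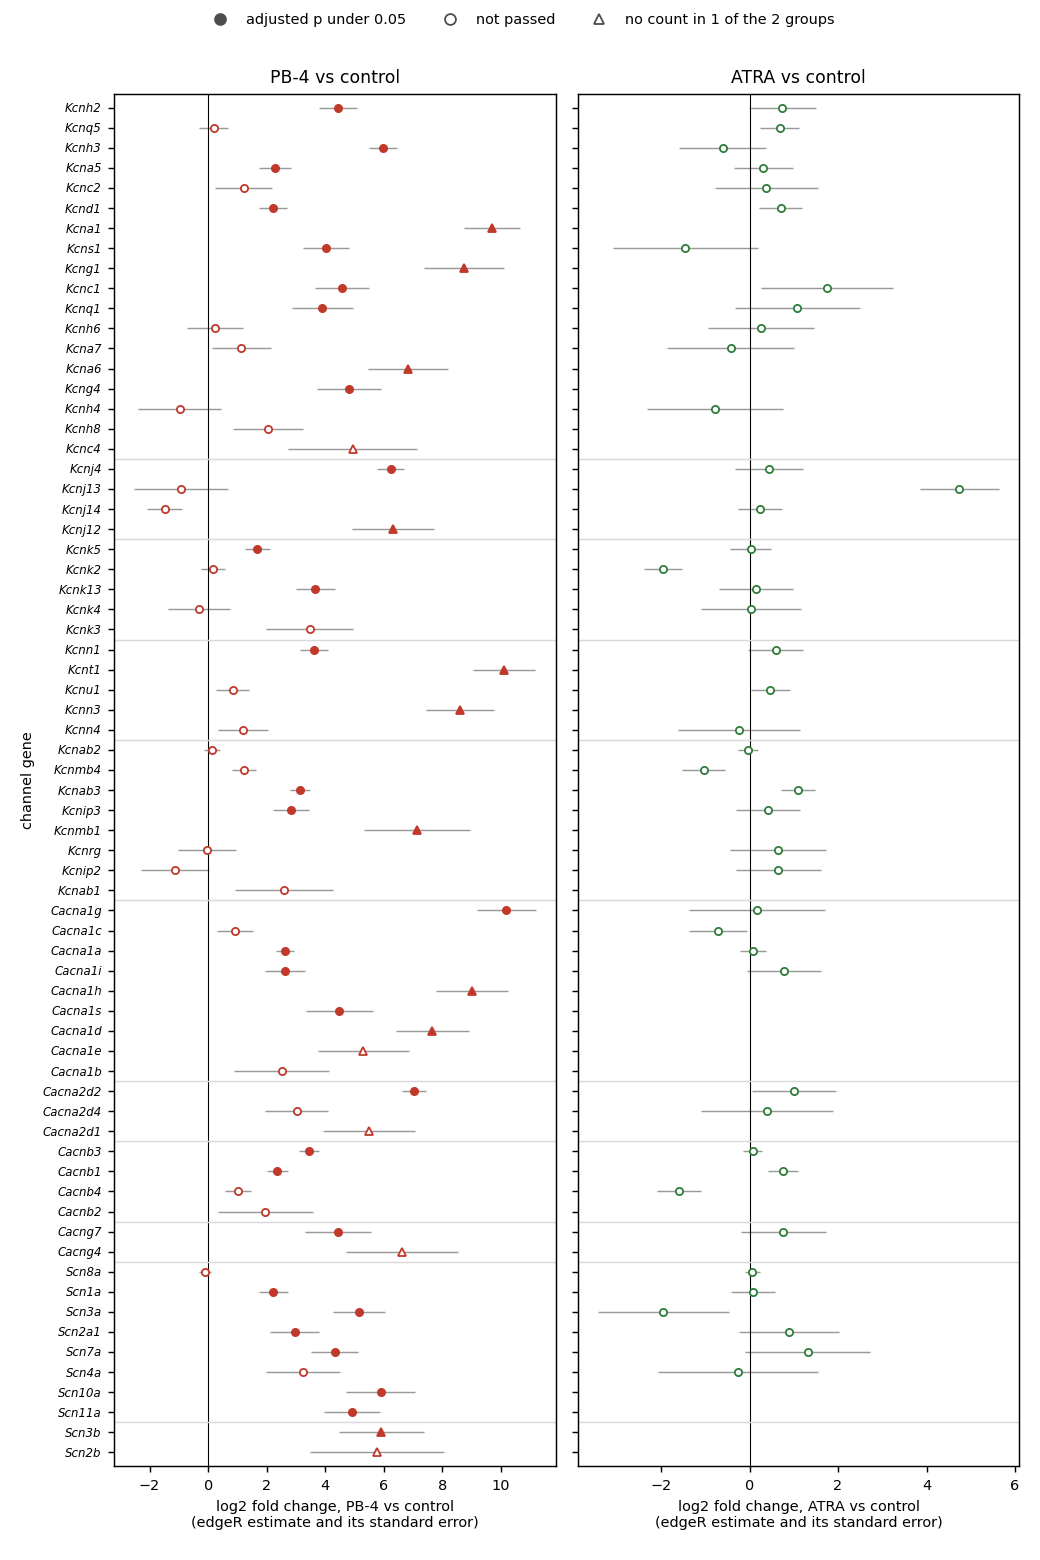
Log2 fold change of 68 of the channel genes with its standard error, PB-4 against control and ATRA against control, by family; filled symbols passed an adjusted p of 0.05, triangles mark genes with no count in 1 group, whose fitted value is no bound, and genes without a point were not tested. Filled symbols lie only on the PB-4 side, 38 of 68, and all to the right of 0.

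Among the calcium channel pore subunits, 6 of 9 rose. The 3 T-type genes, whose channels open at low voltage, were all among them. Cacna1g was at 68.5, 63.9 and 187 CPM in PB-4 libraries, against 0, 0 and 0.385 CPM in control libraries, where its 6 counts all came from replicate 3. Its log2 fold change was 10.18 ± 1.01 (SE, adjusted p = 9.5e-04). Cacna1h was at 1.67, 1.42 and 4.54 CPM with PB-4 and at 0 in every control library, which makes it at least 51.3-fold higher (floor of 3 counts over the group, adjusted p = 0.00562). Here and below, such a fold takes the PB-4 counts as exact and holds for that floor only. It is no confidence bound, since counting error and spread between PB-4 libraries are left out. Cacna1i was at 9.88, 11.9 and 4.88 CPM with PB-4 and at 1.83, 2.03 and 0.257 CPM in controls (2.63 ± 0.69, adjusted p = 0.0341). All PB-4 libraries thus lay above all control libraries for each of the T-type genes.

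Cacna1a, the pore of the P/Q-type channel of nerve terminals, was already transcribed without treatment. It was at 51.3, 66.8 and 44.4 CPM with PB-4 and at 7.91, 11.6 and 6.48 CPM in controls (2.62 ± 0.30, adjusted p = 0.00164). The L-type genes differed in whether they passed in this fit, and no difference between them was tested. Cacna1d, an L-type pore of neurons, endocrine cells and the sinus node, was at 0.853, 0.594 and 1.56 CPM with PB-4 and at 0 in controls, at least 21.1-fold higher (adjusted p = 0.00999). Cacna1s, the L-type pore of skeletal muscle, was at 0.620, 0.775 and 3.05 CPM with PB-4 and at 0, 0.0317 and 0.193 CPM in controls (4.48 ± 1.15, adjusted p = 0.0327). Cacna1c, the L-type pore of heart and smooth muscle, was at 51.9, 50.3 and 20.2 CPM with PB-4 and at 32.0, 26.6 and 5.39 CPM in controls. The groups overlapped and it did not pass (0.91 ± 0.61, adjusted p = 0.347), but with the replicate number as a block its adjusted p was 8.6e-04. The N-type gene Cacna1b and the R-type gene Cacna1e had 9 and 14 counts in all PB-4 libraries together and did not pass.

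The subunits that accompany the calcium channel pore moved unevenly. Cacna2d2, an alpha2delta subunit that raises the number of channels at the surface, was at 16.7, 20.4 and 24.4 CPM with PB-4 and at 0.149, 0.127 and 0.193 CPM in controls. Its log2 fold change of 7.03 ± 0.40 (adjusted p = 2.5e-04) had a small spread in both groups. Cacnb3, a beta subunit that brings the pore to the membrane, was at 89.4, 115 and 208 CPM with PB-4 and at 12.9, 12.2 and 13.1 CPM in controls (3.43 ± 0.34, adjusted p = 9.6e-04). Cacnb1, the beta subunit of skeletal muscle, was at 9.34, 11.2 and 15.5 CPM with PB-4 and at 2.65, 1.93 and 2.38 CPM in controls (2.36 ± 0.35, adjusted p = 0.00362). Cacng7, a gamma subunit that also regulates AMPA receptors, was at 0.698, 0.698 and 5.82 CPM with PB-4 and at 0.0373, 0.190 and 0.0642 CPM in controls (4.43 ± 1.13, adjusted p = 0.0315). Replicate 3 was its highest PB-4 library, and without it the log2 fold change of Cacng7 was 2.76 and no longer passed. The call was also lost without control replicates 1, 2 or 3. Cacna2d1, Cacna2d4, Cacnb2, Cacnb4 and Cacng4 did not pass. With the block, Cacna2d1 (adjusted p = 0.0416), Cacna2d4 (0.0363), Cacnb4 (0.00357) and Cacng4 (0.0127) did, all with higher values in PB-4 cells.

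Of the 21 voltage-gated potassium channel alpha subunits, 12 rose, with a family median log2 fold change of 3.90 over all 21, or 3.56 with groups at 0 set to the floor. Kcnh2, the ERG channel that repolarises the heart, was at 48.9, 62.8 and 96.5 CPM with PB-4 and at 1.94, 1.14 and 7.06 CPM in controls (4.42 ± 0.65, adjusted p = 0.00366). Its relative Kcnh3, a channel of forebrain neurons, was at 9.73, 13.9 and 16.2 CPM with PB-4 and at 0.299, 0.127 and 0.193 CPM in controls (5.97 ± 0.48, adjusted p = 5.2e-04). The other relatives Kcnh4, Kcnh6 and Kcnh8 had 6, 20 and 15 counts over the PB-4 libraries and did not pass.

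The Shaker-type genes Kcna1, Kcna5 and Kcna6 rose and Kcna7 did not pass. Kcna1, the axonal channel mutated in episodic ataxia, was at 5.12, 4.26 and 2.71 CPM with PB-4 and at 0 in all control libraries, at least 105-fold higher (adjusted p = 0.00204). Kcna6 was at 0.504, 0.853 and 0.271 CPM with PB-4 and at 0 in controls, at least 15.5-fold higher (adjusted p = 0.0207). Kcna5, a channel of atrium and smooth muscle, was at 6.47, 5.58 and 11.2 CPM with PB-4 and at 0.896, 1.05 and 2.95 CPM in controls (2.28 ± 0.56, adjusted p = 0.0276).

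Genes for silent subunits, which form channels only together with Kv2 pores, also rose. Kcng1 was at 0.736, 1.65 and 3.93 CPM with PB-4 and at 0 in controls, at least 43.8-fold higher (adjusted p = 0.00911). Kcns1 was at 1.63, 2.14 and 4.20 CPM with PB-4 and at 0.261, 0.0317 and 0.193 CPM in controls (4.03 ± 0.78, adjusted p = 0.0110). Kcng4 had 38 counts with PB-4 and 1 in controls, a ratio of 35.4 with an exact interval of 5.99 to 1436 that covers counting error only (adjusted p = 0.0206).

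Kcnd1, a rapidly inactivating channel, was at 3.49, 2.56 and 3.66 CPM with PB-4 and at 0.933, 0.443 and 0.706 CPM in controls (2.21 ± 0.49, adjusted p = 0.0183). Kcnc1, of the fast-firing neuron channels, had 82 counts with PB-4 and 3 in controls, a ratio of 25.5 with an exact interval of 8.42 to 126 (adjusted p = 0.0137). Of its relatives, Kcnc2 and Kcnc4 did not pass. Kcnc2 was at 9.53, 5.66 and 1.15 CPM with PB-4 and at 3.77, 2.98 and 0.128 CPM in controls, with overlapping groups, and passed with the block (adjusted p = 0.00465).

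Kcnq1, a channel of heart and inner ear, was at 1.36, 1.03 and 0.609 CPM with PB-4 and at 0, 0.158 and 0 CPM in controls (3.90 ± 1.05, adjusted p = 0.0385). All its control counts came from replicate 2, and without that library the log2 fold change was 7.63. The transcript Kcnq1ot1 overlaps it on the other strand and was at 514, 376 and 125 CPM with PB-4 and at 788, 634 and 71.1 CPM in controls (-0.58, adjusted p = 0.658). Kcnq5, a channel of the M current that slows repeated firing, was at 9.57, 9.56 and 4.27 CPM with PB-4 and at 6.79, 10.2 and 3.27 CPM in controls (0.19 ± 0.49, adjusted p = 0.835).

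Of the inward rectifiers, which hold the resting potential, Kcnj4 was at 28.7, 31.5 and 37.9 CPM with PB-4 and at 0.523, 0.190 and 0.642 CPM in controls (6.23 ± 0.45, adjusted p = 3.7e-04). Its close relative Kcnj12 had 30 counts with PB-4 and none in controls, at least 9.33-fold higher (adjusted p = 0.0269). Kcnj14 was at 0.271, 0.258 and 0.474 CPM with PB-4 and at 0.821, 0.633 and 1.35 CPM in controls and did not pass (-1.49 ± 0.61, adjusted p = 0.132), although its groups did not overlap. Kcnj13 was at 0.388, 0 and 0 CPM with PB-4 and at 0.149, 0.570 and 0 CPM in controls (-0.92 ± 1.60, adjusted p = 0.741).

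Of the K2P leak channels, Kcnk13 was at 1.63, 2.69 and 4.47 CPM with PB-4 and at 0.336, 0.0950 and 0.257 CPM in controls (3.66 ± 0.67, adjusted p = 0.00894). Kcnk5, an acid-sensitive channel of kidney, was at 3.57, 3.75 and 2.91 CPM with PB-4 and at 1.19, 1.17 and 0.770 CPM in controls (1.68 ± 0.43, adjusted p = 0.0328). Kcnk2, a channel opened by membrane stretch, was at 2.25, 1.94 and 3.11 CPM with PB-4 and at 2.35, 2.19 and 1.93 CPM in controls, with no test passed (0.16 ± 0.42, adjusted p = 0.837). Kcnk3 and Kcnk4 had 12 and 16 counts in the PB-4 libraries and did not pass.

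Channels gated by ions inside the cell included 2 genes without a control count. Kcnt1, the sodium-activated Slack channel, was at 4.61, 3.02 and 8.67 CPM with PB-4 and at 0 in controls, at least 113-fold higher (adjusted p = 0.00250). Kcnn3, a small-conductance calcium-activated channel, was at 2.25, 0.956 and 2.51 CPM with PB-4 and at 0 in controls, at least 41.0-fold higher (adjusted p = 0.00525). Its relative Kcnn1 was at 6.05, 7.36 and 13.1 CPM with PB-4 and at 0.971, 0.507 and 0.642 CPM in controls (3.62 ± 0.49, adjusted p = 0.00279). Kcnn4, the intermediate-conductance member, and Kcnu1, the sperm channel, did not pass.

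Of the 8 potassium channel accessory genes, 3 rose. Kcnab3, a cytoplasmic beta subunit of Shaker-type channels, was at 13.3, 12.7 and 16.2 CPM with PB-4 and at 1.94, 1.46 and 1.35 CPM in controls (3.13 ± 0.34, adjusted p = 0.00130). Kcnip3, a calcium-binding partner of Kv4 channels that can also repress transcription, was at 8.02, 8.09 and 17.5 CPM with PB-4 and at 0.971, 0.792 and 3.15 CPM in controls (2.82 ± 0.61, adjusted p = 0.0178). Kcnmb1, a beta subunit of the large-conductance channel in smooth muscle, had 39 counts with PB-4 and none in controls, at least 12.1-fold higher (adjusted p = 0.0425). The pore of that channel, Kcnma1, had 5 counts in all 9 libraries together and was not tested. Kcnab2, the beta subunit paralogous to Kcnab3, was at 46.5, 61.7 and 83.5 CPM with PB-4 and at 52.3, 50.6 and 72.3 CPM in controls (0.13 ± 0.26, adjusted p = 0.785). Kcnmb4, the neuronal beta subunit of the large-conductance channel, was at 9.84, 12.5 and 20.1 CPM with PB-4 and at 7.88, 6.37 and 3.66 CPM in controls (1.22 ± 0.41, adjusted p = 0.0767, or 0.0304 with the block). Kcnab1, Kcnip2 and Kcnrg had 10, 7 and 14 counts with PB-4 and did not pass.

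Of the sodium channel alpha subunits, 6 of 9 rose. The embryonic brain gene Scn3a was at 14.9, 10.6 and 3.32 CPM with PB-4 and at 0.336, 0.380 and 0 CPM in controls (5.16 ± 0.88, adjusted p = 0.00666). Scn1a, the channel of inhibitory neurons mutated in Dravet syndrome, was at 32.5, 28.5 and 12.2 CPM with PB-4 and at 6.91, 5.76 and 2.63 CPM in controls (2.23 ± 0.48, adjusted p = 0.0170). Scn2a1, listed as Scn2a by RefSeq, was at 6.59, 5.63 and 1.76 CPM with PB-4 and at 1.08, 0.570 and 0.0642 CPM in controls (2.95 ± 0.83, adjusted p = 0.0441). In these 3 genes replicate 3 was the lowest library of both groups.

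Scn7a, the sodium-sensing channel of glia, was at 1.90, 1.29 and 1.02 CPM with PB-4 and at 0.112, 0.0633 and 0 CPM in controls (4.32 ± 0.80, adjusted p = 0.00921). The sensory neuron genes Scn10a and Scn11a were almost unread in controls, with 1 and 2 counts. Scn10a was at 0.388, 1.37 and 1.76 CPM with PB-4, a ratio of 83.0 with an exact interval of 14.5 to 3315 (adjusted p = 0.0125). Scn11a was at 0.775, 0.465 and 1.63 CPM with PB-4, a ratio of 28.9 with an exact interval of 7.67 to 244 (adjusted p = 0.0118).

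Scn8a, the alpha subunit of nodes of Ranvier, was at 54.0, 54.1 and 42.5 CPM with PB-4 and at 57.1, 51.4 and 54.8 CPM in controls (-0.12 ± 0.20, adjusted p = 0.719). The muscle gene Scn4a did not pass (3.24 ± 1.27, adjusted p = 0.121). Of the beta subunits, Scn3b had 25 counts with PB-4 and none in controls, at least 7.77-fold higher (adjusted p = 0.0384), and Scn2b, with 15 counts against 0, did not pass.

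**Figure D3:**
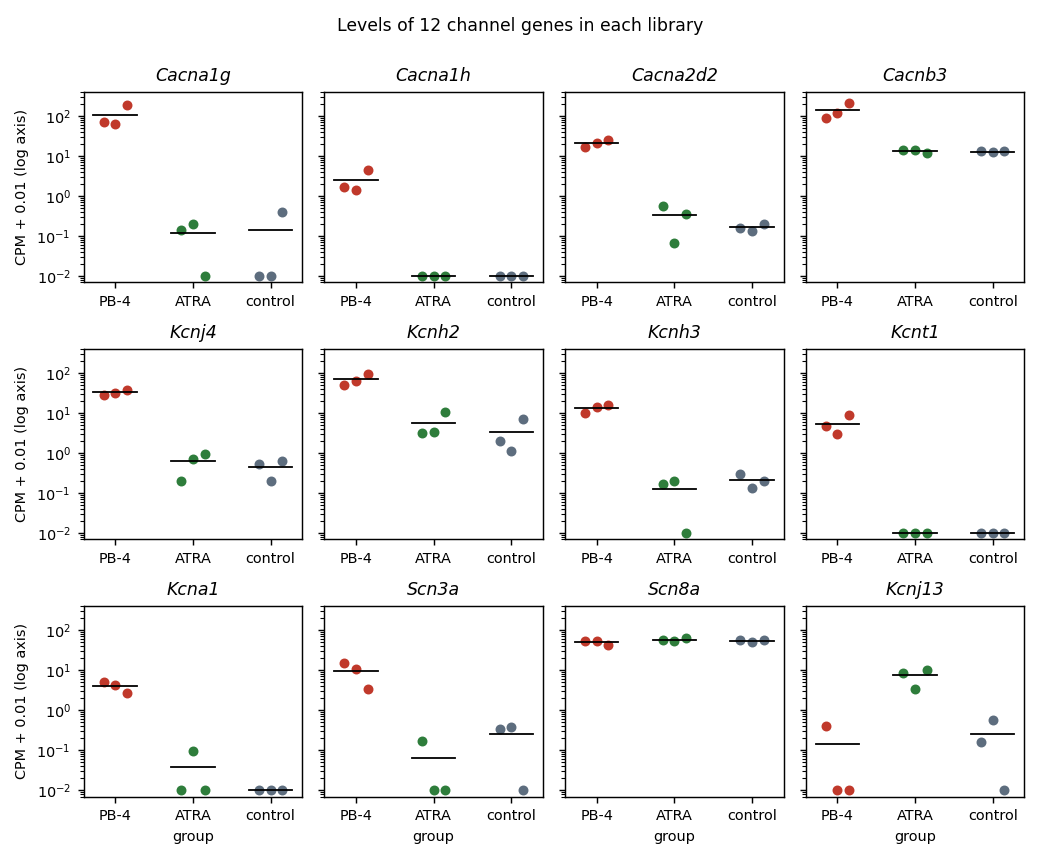
Level of 12 channel genes in every library, as CPM + 0.01 on a log axis, with the 3 PB-4, ATRA and control points side by side in the order of their replicates and a line at each group's mean. For 10 of the genes the PB-4 points lie above all others, Scn8a has its 9 points at about 1 level, and for Kcnj13 the ATRA points lie highest.

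Several of the genes lie beside each other in the genome. On build GRCm38.p6, with RefSeq gene bounds, 16 of the 73 members fell into 7 groups of neighbours within 500 kb, and 9 of these 16 rose, against 31 of the other 57 members. Scn3a and Scn2a1 (chr2:65457118-65767447) and Scn1a and Scn7a (chr2:66270781-66784910) all rose, while Scn9a, which lies between Scn1a and Scn7a, had 3 counts in all libraries. The neighbours Scn10a (chr9:119608456-119719322) and Scn11a (chr9:119753763-119825456) rose. Kcna5, Kcna1 and Kcna6 (chr6:126532551-126740834) all rose, and so did the non-coding RNAs Gm33320 (2.49, adjusted p = 0.00266) and Gm33449 (4.27, adjusted p = 0.00531) there, which were looked up after the channel values had been seen. No member rose in the groups of Cacna1c with Cacna2d4, Kcna7 with Kcnj14 and Kcnh6 with Scn4a. Other genes rose there all the same, among them Lrtm2 (2.50, adjusted p = 0.0243) by Cacna2d4 and Sult2b1 (7.51, 0.00229) by Kcna7. Some fell, such as Gys1 (-0.78, 0.0486) by Kcna7 and Ftsj3 (-0.86, 0.0422) by Scn4a, and many did not pass. Over all genes tested 11.5% rose, and no share was counted for the neighbours.

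The calls differed in how far they held when a library was left out or the test was changed. Of the 40 genes, 22 rose under all 15 alternatives, among them Cacna1a, Cacna1d, Cacna1g, Cacna1h, Cacna2d2, Cacnb1, Cacnb3, Kcna1, Kcnab3, Kcnc1, Kcng1, Kcnh2, Kcnh3, Kcnj4, Kcnk13, Kcnn1, Kcnn3, Kcns1, Kcnt1, Scn3a and Scn7a. The other 18 lost the call in at least 1 fit that left out a library. The count was 23 without control replicate 2 and 25 without control replicate 1. Without PB-4 replicates 1, 2 or 3 it was 28, 29 or 33, and without control replicate 3 it was 38. No share over all genes was counted for the fits that left out a library. On replicates 1 and 2 alone, 47 of 68 genes tested rose, where 22.9% of all genes tested did, and 39 of them were among the 40. With the block 49 rose, where 23.1% of all genes did, and all 40 were among them.

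**Figure D4:**
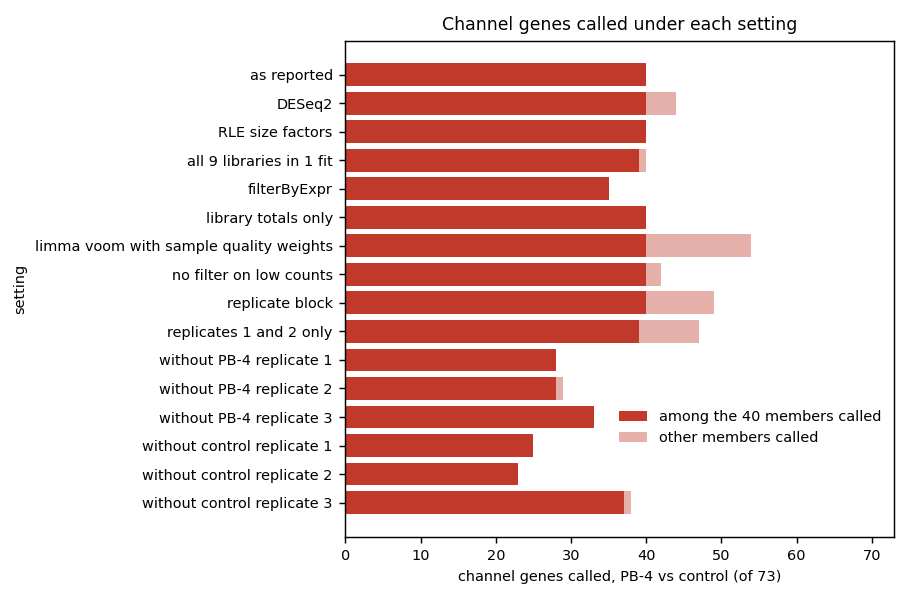
Number of channel genes that rose or fell with PB-4 against control as reported and under each alternative; dark bars count genes among the 40, pale bars other members. Fits on fewer libraries of 1 group give 23 to 38, while the replicate block gives 49 and DESeq2 44.

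The comparison of ATRA-treated with control cells gave no channel gene past the threshold. By edgeR 0 of the 47 genes tested rose and 0 fell, where 0.441% of all 17911 genes tested rose and 0.625% fell. The 47 had a median log2 fold change of 0.24, against 0.00 for all genes, and 33 were positive, a count not made over all genes. At an unadjusted p under 0.05, Kcnj13 and Kcnab3 were higher and Kcnk2 and Cacnb4 lower, where 6.98% of all genes were higher and 8.71% lower. The counts depended on the fit: DESeq2 called 2 higher and 2 lower, limma voom with sample quality weights 5 and 3, the replicate block 2 and 4, and replicates 1 and 2 alone 4 and 4 of 41 tested. Beside the block, 7.53% of all genes rose and 10.8% fell, and on replicates 1 and 2 alone 17.8% and 19.2% did. Without control replicate 3, 1 gene rose and 1 fell. For that fit, DESeq2 and voom no share over all genes was counted, so their counts describe the members only.

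The largest of these differences was that of Kcnj13, an inward rectifier of epithelia that pump ions, such as the retinal pigment epithelium. It was at 8.65, 3.44 and 9.89 CPM with ATRA and at 0.149, 0.570 and 0 CPM in controls. All ATRA libraries lay above all control libraries, with a log2 fold change of 4.74 ± 0.90, but the adjusted p was 0.0563. With the block it was 0.0227, on replicates 1 and 2 alone 1.3e-04 and with DESeq2 6.9e-08, and over all alternatives it ran from 6.9e-08 to 0.249. Kcnj13 lies within Gigyf2 and Gigyf2 did not pass with ATRA (-0.10, adjusted p = 0.867).

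Kcnk2 was at 0.587, 0.499 and 0.602 CPM with ATRA and at 2.35, 2.19 and 1.93 CPM in controls. Its groups did not overlap, and the log2 fold change of -1.96 ± 0.42 had an adjusted p of 0.0730, or 0.0140 with the block. Cacnb4, a beta subunit of neuronal calcium channels, was at 1.40, 1.58 and 0.688 CPM with ATRA and at 4.55, 4.56 and 2.12 CPM in controls (-1.60 ± 0.49, adjusted p = 0.178, or 0.0120 with the block). Kcnab3 was at 3.92, 3.11 and 3.27 CPM with ATRA and at 1.94, 1.46 and 1.35 CPM in controls (1.09 ± 0.38, adjusted p = 0.219, or 0.0419 with the block). With the block Cacna1c (-0.63, adjusted p = 0.0459, against -0.72 ± 0.66 and 0.658 without the block) and Kcnmb4 (-1.10, adjusted p = 0.0437, against -1.04 ± 0.49 and 0.353 without the block) were lower as well. Scn8a was at 56.6, 52.6 and 63.5 CPM with ATRA and at 57.1, 51.4 and 54.8 CPM in controls (0.06 ± 0.17, adjusted p = 0.898).

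PB-4-treated cells were also set against ATRA-treated cells. This comparison shares its PB-4 libraries with the first and its ATRA libraries with the second, so it is not independent of either. Of 72 genes tested, 39 were higher with PB-4 and 1 was lower, where 10.3% and 1.94% of all 19521 genes tested were. At an unadjusted p under 0.05, 53 were higher and 2 lower, where 19.6% and 7.82% of all genes were. On replicates 1 and 2 alone, 47 of 69 were higher and 2 lower at an adjusted p under 0.05, where 21.1% and 16.6% of all genes were. The median log2 fold change was 2.92, or 2.51 with groups at 0 set to the floor, against 0.04 for all genes. These values too rest in part on the limit used to form the set. Of the 39 genes, 11 had no count in any ATRA library and entered on their PB-4 counts.

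Kcnj13 was the 1 gene that was lower, at 0.388, 0 and 0 CPM with PB-4 and 8.65, 3.44 and 9.89 CPM with ATRA (-5.68 ± 1.08, adjusted p = 0.00991). All of its PB-4 counts came from replicate 1, without which the log2 fold change was -10.59. Kcnt1, Cacna1h, Kcng1 and Kcnn3 were at 0 in all ATRA libraries as in all control libraries and higher with PB-4 than with ATRA: Kcnt1 was at least 119.9-fold, Cacna1h at least 54.4-fold, Kcng1 at least 46.4-fold and Kcnn3 at least 43.5-fold higher. Cacna1g was at 0.131, 0.194 and 0 CPM with ATRA (9.59 ± 0.72, adjusted p = 3.2e-04). Scn3a was at 0.163, 0 and 0 CPM with ATRA (7.17 ± 1.01, adjusted p = 0.00267), and without ATRA replicate 1, which held all of these counts, its log2 fold change was 10.95. Kcns1 had 3 ATRA counts, all in replicate 3, a ratio of 61.6 with an exact interval of 20.8 to 301. Its fitted log2 fold change was 5.73, and 9.27 without that library. Cacng7 gave 3.75 ± 1.00 (adjusted p = 0.0405), and 1.97 without PB-4 replicate 3.

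Some genes passed in only 1 of the comparisons that hold the PB-4 libraries, 6 against control and 5 higher against ATRA, and no difference between these comparisons was tested. Cacna1i, at 1.73, 4.77 and 0.688 CPM with ATRA, gave 1.86 ± 0.65 against ATRA (adjusted p = 0.102, or 4.7e-05 with the block). Kcnc1 (2.75 ± 0.96, 0.101, block 0.0215), Scn7a (3.24 ± 0.92, 0.0513, block 0.00232) and Scn2a1 (2.05 ± 0.92, 0.187, block 0.00144) likewise passed against ATRA only with the block, and Scn3b did not (2.52 ± 1.00, 0.140, block 0.145). In the other direction, Cacnb4 (2.64 ± 0.47, adjusted p = 0.00724), Kcnk2 (2.14 ± 0.46, 0.0166) and Kcnmb4 (2.27 ± 0.48, 0.0157) passed against ATRA and not against control. Without ATRA replicate 1 the count of genes higher with PB-4 was 22, and without ATRA replicates 2 or 3 it was 28 or 37. Without PB-4 replicates 1, 2 or 3 it was 29, 28 or 33. No share over all genes was counted for these fits. Of the 40 genes called, 23 kept the call under all 15 alternatives.

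Proteins that bind these channels were followed as a separate list of 41 genes, and 5 of the 26 that could be tested rose with PB-4 against control and 1 fell, where 11.5% and 4.59% of all genes did, with a median log2 fold change of 0.30. Stac2, an adaptor that holds L-type channels at the membrane, was at 26.1, 35.4 and 33.7 CPM with PB-4 and at 0.485, 0.665 and 0.0642 CPM in controls (6.14 ± 0.56, adjusted p = 7.0e-04). Fgf11, of the intracellular factors that bind sodium channels (3.76 ± 0.53, 0.00316), Amigo1, a partner of Kv2 channels (2.37 ± 0.27, 0.00150), Cabp1, a calcium sensor (2.55 ± 0.34, 0.00238), and Ank3, the ankyrin of the axon initial segment, also rose. Calm2, a calmodulin gene, fell by 1.08 on the log2 scale (SE 0.25, adjusted p = 0.0212), and lost the call without PB-4 replicate 2 and without control replicates 1 or 2. With the block 10 rose and 3 fell, where 23.1% and 21.3% of all genes did, and on replicates 1 and 2 alone 9 and 3, where 22.9% and 16.8% did. Against control, ATRA raised none of 24 partners and lowered 1, Akap6, an anchor of protein kinase A (-1.83 ± 0.33, adjusted p = 0.0471). That call was lost with other size factors, with filterByExpr and without ATRA or control replicates 1 or 2, and the block gave 1 higher and 5 lower, where 7.53% and 10.8% of all genes were. Of 26 partners, 8 were higher and 0 lower with PB-4 than with ATRA, where 10.3% and 1.94% of all genes were.

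Other cation channels, again 41 genes, gave 8 higher and 1 lower of 30 tested with PB-4 against control, beside 11.5% and 4.59% of all genes, with a median log2 fold change of 0.72. Ryr1, the calcium release channel of skeletal muscle, was at 9.69, 6.77 and 16.9 CPM with PB-4 and at 0.261, 0.127 and 0.642 CPM in controls (5.11 ± 0.66, adjusted p = 0.00236). Hcn2, of the channels that carry the pacemaker current, was at 73.9, 86.2 and 116 CPM with PB-4 and at 20.9, 17.2 and 25.4 CPM in controls (2.12 ± 0.25, adjusted p = 0.00189). Trpm4, Itpr3, the heat- and swelling-sensitive Trpv4 (2.28 ± 0.42, 0.00882), Ryr3 (3.32 ± 0.68, 0.0142) and Unc79, a subunit of the sodium leak channel (2.50 ± 0.53, 0.0156), rose too. Hvcn1, the proton channel, fell by 1.16 on the log2 scale (SE 0.23, adjusted p = 0.0126). Ryr3 and Hvcn1 lost the call without PB-4 replicate 2, and Unc79 without PB-4 or control replicates 1 or 2. With the block 18 rose and 4 fell, beside 23.1% and 21.3% of all genes, and on replicates 1 and 2 alone 17 and 3, beside 22.9% and 16.8%. With ATRA 0 of 28 rose and 0 fell against control by edgeR, beside 0.441% and 0.625% of all genes. The block gave 9 and 3, beside 7.53% and 10.8%, and replicates 1 and 2 alone 13 and 3, beside 17.8% and 19.2%. DESeq2 gave 3 and 1, for which no share over all genes was counted. Against ATRA, 6 of 30 were higher with PB-4 and 2, Hvcn1 and Trpm1, were lower, beside 10.3% and 1.94% of all genes.

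Markers of cell types in which many of these channels are known were counted in the same fit of PB-4 against control, in which 11.5% of all genes tested rose and 4.59% fell. Of 17 neuronal markers, 9 could be tested and 5 rose, namely Rbfox3, Syt1, Tubb3, Syn1 and Slc17a7, and 7 with the block. Their summed level was 365 to 454 CPM with PB-4, 72.6 to 74.6 CPM with ATRA and 96.6 to 152 CPM in controls. Slc17a7, a vesicular glutamate transporter, was at 50.3, 56.2 and 82.3 CPM with PB-4 and at 1.75, 1.01 and 1.09 CPM in controls (5.59 ± 0.36, adjusted p = 2.6e-04), while Nefl, Nefm, Slc17a6 and Gad2 were at 0 in every library. Of 13 muscle markers, 9 could be tested and 2 rose, with sums of 70.8 to 98.9 CPM with PB-4, 21.9 to 28.7 CPM with ATRA and 15.8 to 24.8 CPM in controls, and Myod1 was at 0 in every PB-4 library. Fibroblast markers rose in 5 of 8, with sums of 359 to 1391 CPM with PB-4, 9.46 to 20.8 CPM with ATRA and 19.5 to 26.2 CPM in controls, and Thy1 was at 0 in every PB-4 library. Among them the collagen gene Col1a1 was at 234, 284 and 1248 CPM with PB-4 and at 3.36, 3.33 and 0.835 CPM in controls (7.82 ± 0.92, adjusted p = 0.00177).

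Immune markers rose in 2 of 5, with sums of 36.4 to 44.0 CPM with PB-4, 4.37 to 7.31 with ATRA and 11.6 to 16.7 in controls, and the lysozyme gene Lyz2 rose (3.33 ± 0.28, adjusted p = 5.8e-04). Of 5 endothelial markers, 2 could be tested and 1, Vwf, rose, while Kdr was at 0 in every PB-4 library. Of 6 keratinocyte markers, only 1, Trp63, could be tested, and it rose. Krt5, Krt14, Krt10 and Dsg3 had 1 count each with PB-4, and Krt1 had none. The summed levels of these lists were at most 12.7 and 4.03 CPM. Markers of the melanocyte lineage were high in every library. Their sum was 6784 to 8331 CPM with PB-4, 7845 to 10184 CPM with ATRA and 12232 to 14622 CPM in controls, and Pmel, Mlana and Tyrp1 fell with PB-4 among 7 tested. The part of these cell type markers in the channel values was not tested.

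Of the 73 members, 39 overlap another annotated gene, and no source names the strand used for counting, so reads of such pairs cannot be told apart. Beside genes that rose with PB-4, the overlapping Rpl19 at Cacnb1 (-0.25, adjusted p = 0.686), Mcrs1 at Kcnh3 (-0.27, 0.763) and Dcp1a at Cacna1d (-0.27, 0.487) did not pass, while Chdh, which also overlaps Cacna1d, rose (6.53, adjusted p = 0.0232).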

How the data were processed

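Total RNA from 9 B16 libraries (3 PB-4, 3 ATRA, 3 control) was analysed, and the 9 small RNA libraries of the series were not used. The submitters' processing notes name HISAT2 2.0.4 and the mouse build GRCm38 (mm10). Not given in the sources used here were the counting tool, annotation, strand setting and RNA-seq test. The deposited values are raw read counts per gene symbol made by the authors. Of 46095 lines, 27 whose symbols had been turned into dates were left out.

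Genes reaching 10 counts over the 6 libraries of a comparison were tested with the quasi-likelihood test of edgeR 4.0.16 (R 4.3.3, TMM size factors, glmQLFit and glmQLFTest), with Benjamini-Hochberg adjustment over all genes tested and a threshold of 0.05. Fold changes are log2 and errors are SE. Intervals are exact at 95% and cover counting error only. Folds given as at least a value set the group at 0 to 3 counts and take the other group's counts as exact, so they are no confidence bounds. Alternatives were DESeq2 1.42.0, limma 3.58.1 voom with sample quality weights, RLE size factors, library totals, filterByExpr, no filter, all 9 libraries in 1 fit, replicates 1 and 2 only, a replicate block and leaving out each library. Scripts were tested on simulated data. No 2 libraries were copies of each other. Tables and figures used Python 3.11.15 with pandas 2.3.3, numpy 2.4.6, scipy 1.17.1 and matplotlib 3.10.9. Gene bounds and promoter windows are from RefSeq (GRCm38.p6), to which 72 members matched by symbol and 1 by synonym.

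Libraries with the same replicate number deviated together from their group means, with correlations across genes of 0.445 to 0.761, over the 0.1 set for pairing. Replicates 1 and 2 of different groups also correlated across numbers (0.366 to 0.613), and replicate 3 with the others did so negatively (-0.718 to -0.486). The labels do not say what a number shares.

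The members and lists were chosen with earlier results of these data known. Named genes were, for each comparison, the up to 10 called members with the largest change and at least 1 CPM, the up to 3 members of each family with the highest mean, and up to 4 called genes of each other list. Other genes were named after their values were seen. Some genes are not reported here, and figures by gene leave them out, while all counts include them.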

Additional observations from a re-analysis of the deposited data

How the results depend on the processing

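Many members had few counts without PB-4, and with 3 libraries a group some calls ended when 1 library was left out. Left out in turn, single libraries gave 23 to 38 channel genes higher with PB-4 than in controls (40 with all), 22 to 37 higher with PB-4 than with ATRA (39 with all), and 0 to 1 higher and 0 to 1 lower with ATRA than in controls. With ATRA against control, genes higher numbered 2 with DESeq2, 5 with voom, 1 with no filter, 2 with the replicate block and 4 on replicates 1 and 2 alone, against 0. Genes lower numbered 2 with DESeq2, 1 with all 9 libraries in 1 fit, 3 with voom, 4 with the replicate block and 4 on replicates 1 and 2 alone, against 0. Genes lower with PB-4 numbered 2 with voom against control, and against ATRA 2 each with DESeq2, voom, the replicate block and replicates 1 and 2 alone, where 1 was reported. The replicate block gave 49 higher for PB-4 against control and 48 against ATRA, where 23.1% and 18.7% of all genes were. It ended no call of a channel gene in either comparison. Shares over all genes were counted only for the reported fit, the replicate block and replicates 1 and 2 alone. Changes of sign were met in values that did not pass as reported; of these, Kcnh2 with ATRA was higher with voom and on replicates 1 and 2 alone. With ATRA against control, Kcnh2 gave -0.03 without ATRA replicate 3 (up to 1.87 without control replicate 3), and Scn8a 0.00 without ATRA replicate 3 (up to 0.13 without ATRA replicate 2). With PB-4 against control, leaving out 1 library gave -0.06 to 0.30 for Kcnab2 and -5.75 to 0.63 for Kcnj13. Kcnk2 gave -0.19 with voom and -0.08 on replicates 1 and 2 alone, Kcnq5 0.00 without PB-4 replicate 1 and -0.14 to 0.62 over the libraries left out. Scn8a gave 0.05 with library totals, 0.03 on replicates 1 and 2 alone and -0.20 to 0.04 over the libraries left out. The cause was not tested. Values of single genes reported for PB-4 against control were compared under each alternative that tested them, so a gene is counted repeatedly. Of these pairs of gene and alternative, 875 kept their direction and side of the threshold. The threshold was lost in 77 and gained in 22, and 9 changed sign.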
